A study of Bos taurus with 8 samples.

Results

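The mRNA of the lipoxygenase and leukotriene pathway were examined in the bovine corpus luteum (CL), the ovarian gland that secretes progesterone. They were chosen by symbol, and 10 of 10 were found among the 13861 genes of the table. They are the lipoxygenases ALOX5, ALOX12 and ALOX15, the 5-lipoxygenase helper ALOX5AP, the enzymes LTA4H and LTC4S, and the leukotriene receptors LTB4R, LTB4R2, CYSLTR1 and CYSLTR2. CL were collected at slaughter on day 17 after estrus from 4 Holstein heifers that had been bred and were pregnant and from 4 that had not been bred and were in the estrous cycle. Each CL came from its own animal, numbered 1, 2, 4 and 5 in pregnancy and 1 to 4 in the cycle, and whole tissue was snap frozen, so luteal, endothelial and immune cells were sequenced together. Total RNA was sequenced in libraries that keep the strand. Reads recovered from the normalized counts of the 13861 genes summed to 43654655 to 48294165 per CL of pregnancy and 42770725 to 47076454 per CL of the cycle. These sums are not the sequencing depth.

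Lipoxygenases add oxygen to arachidonic acid. ALOX5, with the membrane protein ALOX5AP that presents the fatty acid to it, makes leukotriene A4, which LTA4H turns into leukotriene B4 and LTC4S joins to glutathione to give leukotriene C4, the first of the cysteinyl leukotrienes. ALOX12 and ALOX15 form 12- and 15-hydroxy fatty acids (HETE), in proportions that differ between species, and ketones such as 15-KETE are made from these. In mammals the 5-lipoxygenase branch is best known from leukocytes, and its products draw immune cells into tissues through LTB4R and LTB4R2 and act on vessels and smooth muscle through CYSLTR1 and CYSLTR2. Lipids of this pathway were profiled by the study in other CL, collected a day later in the cycle or pregnancy. This raised the question of whether the mRNA of their enzymes and receptors differ between pregnancy and the cycle. The paper had already combined the lipids and mRNA that changed. It found no clear link of a lipid with its enzyme or receptor, although its network analysis gave networks that held both.

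No member passed the test between CL of pregnancy and CL of the estrous cycle. Of the 10 mRNA, 0 had a limma adjusted p under 0.05, where 0.0216% of all genes did (0.0144% higher and 0.00721% lower in pregnancy), and 0 had an unadjusted p under 0.05, where 7.51% of all genes did. On reads recovered from the table the count was also 0 in edgeR, where 0.00721% of all genes passed when adjusted and 8.12% when not, and 0 in DESeq2. DESeq2 gave an adjusted p for 12743 genes, of which 0.746% passed when adjusted and 9.87% when not, and for 8 of the 10 members, with none for LTB4R2 and CYSLTR1. In genes, limma called 3, edgeR 1 and DESeq2 95. The paper states a larger number of differentially abundant mRNA for this data set. The test and threshold behind its number were not given in the sources used here. In 0 of the 10 were the 4 CL of pregnancy all on one side of the 4 CL of the cycle, as they were in 4.3% of all genes. Fold changes ran from -0.97 for LTB4R to 1.08 for ALOX15 on the log2 scale (pregnant minus cyclic, of normalized count + 1), with 7 above 0 and 3 below it. Their median was 0.10, beside 0.00047 over all genes. Because whole tissue was sequenced, fewer cells of a type and less RNA per cell cannot be told apart in any of these values.

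**Figure D1:**
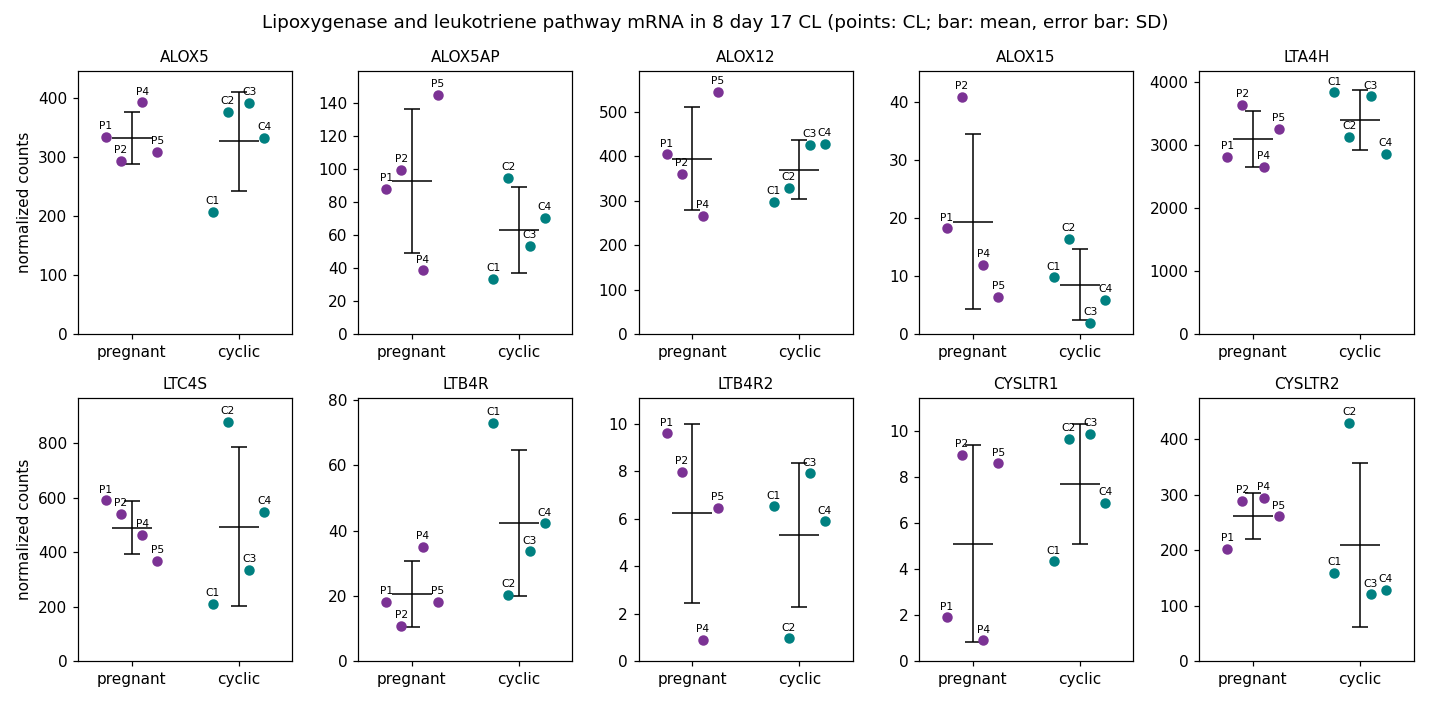
Normalized counts of the 10 mRNA in each CL of pregnancy (left in each panel) and of the estrous cycle (right). Points are single CL labelled with P or C and the animal's number, long dashes are group means and error bars are SD (n = 4). The groups overlap in each panel, and cyclic replicate 2 lies at 429 normalized counts of CYSLTR2, above the other 7 CL.

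ALOX5 (ENSBTAG00000020319), the enzyme at the head of the leukotriene branch, had nearly the same mean in both groups. It had 334, 294, 392 and 308 normalized counts (reads divided by a factor for each CL) in pregnant replicates 1, 2, 4 and 5, against 207, 376, 391 and 332 in cyclic replicates 1 to 4. The lowest value was that of cyclic replicate 1, and the other 7 CL shared one range. ALOX5 averaged 332 ± 43.3 normalized counts in pregnancy and 326 ± 83.8 in the cycle (SD, n = 4 each). For ALOX5 the difference on the log2 scale was 0.06 ± 0.22 (SE), at an adjusted p of 0.965 by limma. The 95% interval of the ratio ran from 0.742 to 1.46, so these CL do not exclude a change of that size. The sign turned without cyclic replicate 1 (-0.15) and without pregnant replicate 4 (-0.02).

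ALOX5AP (ENSBTAG00000013201), without which ALOX5 makes few leukotrienes in intact cells, varied more between animals than ALOX5 did. In pregnancy it had 88.2, 99.5, 38.6 and 145 normalized counts in replicates 1, 2, 4 and 5, against 33.7, 94.7, 53.4 and 70.7 in the cycle. Pregnant replicate 5 was highest and pregnant replicate 4 was next to lowest, so the spread within pregnancy covered nearly all values of the cycle. ALOX5AP averaged 92.9 ± 43.7 normalized counts in pregnancy and 63.1 ± 25.9 in the cycle (SD, n = 4 each). For ALOX5AP the difference on the log2 scale was 0.50 ± 0.44 (SE), at an adjusted p of 0.805 by limma, with values between 0.24 and 0.87 after omission of 1 CL. From the lowest to the highest CL, ALOX5AP spanned 4.31-fold and ALOX5 1.90-fold. Within a CL the log2 ratio of ALOX5AP to ALOX5 was -1.92, -1.56, -3.34 and -1.09 in pregnancy and -2.62, -1.99, -2.87 and -2.23 in the cycle. Both the lowest and the highest ratio were found in pregnancy.

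Of the other lipoxygenases, ALOX12 had 289 to 507 reads per CL of pregnancy and 274 to 436 per CL of the cycle, and ALOX15 had few. ALOX12 (ENSBTAG00000021933), which makes 12-HETE and is best known from platelets, had 405, 361, 266 and 545 normalized counts in pregnancy, against 298, 329, 426 and 428 in the cycle. Both the highest and the lowest value were in pregnancy, in replicates 5 and 4. ALOX12 averaged 394 ± 116 normalized counts in pregnancy and 370 ± 66.7 in the cycle (SD, n = 4 each). For ALOX12 the difference on the log2 scale was 0.06 ± 0.23 (SE), at an adjusted p of 0.965 by limma. The 2 platelet markers in the table of 5 listed, PF4 and ITGA2B, summed to 380 to 464 normalized counts in pregnancy and 345 to 411 in the cycle, of which ITGA2B, the integrin alpha chain of platelets, made up most. PF4, the platelet chemokine, averaged 10.7 ± 6.91 normalized counts in pregnancy and 4.23 ± 1.93 in the cycle (n = 4 each, ± SD), and its bearing on ALOX12 was not tested.

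ALOX15 (ENSBTAG00000011990), which in human cells makes mainly 15-HETE, the precursor of 15-KETE, had few reads and an uncertain fold change. Its values were 18.2, 40.8, 11.96 and 6.45 normalized counts in pregnancy, against 9.78, 16.4, 1.98 and 5.89 in the cycle. These are 6 to 41 reads per CL of pregnancy and 2 to 17 per CL of the cycle. For pregnant replicate 2, with 41 reads, the exact 95% Poisson interval was 29.4 to 55.6 reads, which covers counting error only. Pregnant replicates 1 and 2 lay above every CL of the cycle, the first by little, while pregnant replicates 4 and 5 lay among those of the cycle. ALOX15 averaged 19.4 ± 15.1 normalized counts in pregnancy and 8.52 ± 6.16 in the cycle (SD, n = 4 each). For ALOX15 the difference on the log2 scale was 1.08 ± 0.67 (SE), at an adjusted p of 0.728 by limma. The ratio had a 95% interval from 0.747 to 6.01, and omission of 1 CL gave log2 differences between 0.61 and 1.47.

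LTA4H (ENSBTAG00000016415), which completes leukotriene B4, was the steadiest member. It had 2818, 3641, 2661 and 3256 normalized counts in pregnancy, against 3839, 3130, 3777 and 2861 in the cycle. The CL interleaved, and the highest value was only 1.44 times the lowest. LTA4H averaged 3094 ± 444 normalized counts in pregnancy and 3402 ± 482 in the cycle (SD, n = 4 each). For LTA4H the difference on the log2 scale was -0.14 ± 0.13 (SE), at an adjusted p of 0.825 by limma. Its 95% interval, from 0.741 to 1.12 as a ratio, was the narrowest among the 10 mRNA. LTA4H also has aminopeptidase activity and is found in most tissues.

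LTC4S (ENSBTAG00000009737), the entry to the cysteinyl leukotrienes, had almost the same mean in both groups but a different spread. The values were 591, 541, 464 and 369 normalized counts in pregnancy, against 212, 878, 337 and 550 in the cycle. The cycle held both the lowest CL, replicate 1, and the highest, replicate 2. LTC4S averaged 491 ± 97.0 normalized counts in pregnancy and 494 ± 291 in the cycle (SD, n = 4 each). For LTC4S the difference on the log2 scale was 0.17 ± 0.38 (SE), at an adjusted p of 0.934 by limma, and it was -0.17 without cyclic replicate 1. In edgeR and DESeq2, which compare means of reads, it was -0.011 and -0.0091. The difference in spread between groups was not tested. The log2 ratio of LTC4S to LTA4H, the enzymes that compete for leukotriene A4, was -2.25, -2.75, -2.52 and -3.14 in pregnancy and -4.18, -1.83, -3.49 and -2.38 in the cycle, so the CL of pregnancy all lay inside the range of the cycle.

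Among the receptors, LTB4R (ENSBTAG00000010238), the high-affinity receptor of leukotriene B4 on leukocytes, had a lower mean in pregnancy but did not pass the test. It had 18.2, 10.9, 35.0 and 18.3 normalized counts in pregnancy, against 72.8, 20.3, 33.6 and 42.2 in the cycle. These are 11 to 38 reads per CL of pregnancy and 21 to 67 per CL of the cycle. Of the CL of pregnancy, 3 lay below every CL of the cycle, and pregnant replicate 4 lay among those of the cycle. Without pregnant replicate 4, the CL that made the groups overlap, the log2 difference was -1.25 (adjusted p of 0.651 by limma). LTB4R averaged 20.6 ± 10.2 normalized counts in pregnancy and 42.2 ± 22.3 in the cycle (SD, n = 4 each). For LTB4R the difference on the log2 scale was -0.97 ± 0.47 (SE), at an adjusted p of 0.668 by limma. By exact two-sided permutation of the 8 CL the p was 0.0857, where 0.0286 is the smallest that 70 labelings allow. The 95% interval of the ratio ran from 0.247 to 1.05. The log2 fold change stayed below 0 with each CL left out, from -1.26 without cyclic replicate 2 to -0.67 without cyclic replicate 1, the CL with the most LTB4R.

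Neutrophils are a main site of LTB4R. Of 8 neutrophil markers, 6 were in the table, and their sum was 266 to 548 normalized counts in pregnancy and 216 to 683 in the cycle. CXCR2, a chemokine receptor of neutrophils, had 43.7 ± 10.4 normalized counts in pregnancy and 19.1 ± 7.15 in the cycle (SD, n = 4 each). Its groups did not overlap, as in 4.3% of all genes, and its adjusted p by limma was 0.542. CXCR2 had 2 rows, of which the one with the higher mean was used. MPO and CSF3R, which also mark these cells, averaged 1.73 and 2.84 normalized counts in pregnancy and 4.78 and 2.61 in the cycle. MPO had 14 reads in cyclic replicate 1 and 1 to 2 in every other CL, and CSF3R had 1 to 8 reads per CL. S100A8, S100A9 and S100A12 averaged 85.3, 74.3 and 192 normalized counts in pregnancy and 76.4, 120 and 160 in the cycle. The groups overlapped for each (limma adjusted p = 0.887, 0.925 and 0.843). In cyclic replicate 1, where the sum was 683, S100A9 had 316. The part of neutrophils in the LTB4R values was not tested.

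LTB4R2 and CYSLTR1 had 1 to 10 reads per CL. LTB4R2 (ENSBTAG00000040056), the low-affinity receptor of leukotriene B4, had 10, 8, 1 and 6 reads in pregnancy and 6, 1, 8 and 6 in the cycle. The table holds no value below 1 read, and 250 to 381 genes per CL sit at 1 while 53 to 61 sit at 3, so a recorded 1 may stand for none. LTB4R2 averaged 6.23 ± 3.77 normalized counts in pregnancy and 5.32 ± 3.02 in the cycle (SD, n = 4 each). For LTB4R2 the difference on the log2 scale was 0.15 ± 0.70 (SE), at an adjusted p of 0.974 by limma. In RefSeq's ARS-UCD2.0 annotation LTB4R2 overlaps the gene CIDEB, ALOX12 and ALOX15 each overlap LOC112442630, and CYSLTR1 overlaps TRNAC-GCA. Whether reads were split between such genes is not known. CIDEB, in no list and looked up after its values were seen, had 51.7 ± 22.9 normalized counts in pregnancy and 71.7 ± 33.7 in the cycle (n = 4 each, ± SD).

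CYSLTR1 (ENSBTAG00000024675), a receptor of leukotrienes C4 and D4 on smooth muscle and leukocytes, had 2, 9, 1 and 8 reads in pregnancy and 4, 10, 10 and 7 in the cycle. Pregnant replicates 1 and 4 were lowest, and pregnant replicates 2 and 5 lay within the range of the cycle. CYSLTR1 averaged 5.10 ± 4.27 normalized counts in pregnancy and 7.69 ± 2.62 in the cycle (SD, n = 4 each). For CYSLTR1 the difference on the log2 scale was -0.80 ± 0.63 (SE), at an adjusted p of 0.780 by limma. The 95% interval of the ratio was wide, from 0.216 to 1.53.

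CYSLTR2 (ENSBTAG00000017508), the other cysteinyl leukotriene receptor, known from endothelium and leukocytes in human tissue, was a member whose comparison depended strongly on 1 CL. It had 202, 289, 294 and 261 normalized counts in pregnancy, against 160, 429, 121 and 129 in the cycle. Cyclic replicate 2 was the highest of all 8, while the other 3 CL of the cycle were the lowest of all. CYSLTR2 averaged 262 ± 42.1 normalized counts in pregnancy and 209 ± 147 in the cycle (SD, n = 4 each). For CYSLTR2 the difference on the log2 scale was 0.52 ± 0.37 (SE), at an adjusted p of 0.757 by limma, and 0.32 in both edgeR and DESeq2. Without cyclic replicate 2 the cyclic mean was 136 and the log2 fold change was 0.93, still with a limma adjusted p of 0.404. That CL alone made the groups overlap, so its omission separates them by selection. Leaving out any other CL gave 0.32 to 0.63. No label sets cyclic replicate 2 apart.

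The 4 endothelial markers summed to 27632 to 36878 normalized counts in pregnancy and 31082 to 45525 in the cycle, and cyclic replicate 2 was the lowest of the cycle. Mast cells, another site of leukotriene C4 and its receptors, were followed by 5 of 6 listed markers, which summed to 11641 to 20885 in pregnancy and 8312 to 10199 in the cycle. Most of that sum was KIT, a growth factor receptor that cells other than mast cells also carry, at 13243 ± 4515 normalized counts in pregnancy and 8469 ± 1050 in the cycle (n = 4 each, ± SD), at an adjusted p of 0.576 by limma. The protease CPA3, which is more specific to mast cells, averaged 18.1 ± 7.65 normalized counts in pregnancy and 9.40 ± 4.14 in the cycle (n = 4 each, ± SD), at an adjusted p of 0.689 by limma. CPA3 had 4 to 30 reads per CL. Of the 5 mast cell markers, 4 had log2 fold changes above 0 and 1 below. The 1 below was GATA2, at 863 ± 89.3 normalized counts in pregnancy and 981 ± 281 in the cycle (adjusted p of 0.865 by limma). Eosinophils, which also make leukotriene C4, had 2 of 5 markers in the table, with a sum of 9.95 to 21.1 in pregnancy and 2.97 to 7.61 in the cycle. PRG3 had 16, 2, 1 and 10 reads in pregnancy and 2, 2, 1 and 1 in the cycle. CCR3 had 6, 8, 10 and 1 reads in pregnancy and 5, 3, 2 and 4 in the cycle. The groups overlapped for each (limma adjusted p = 0.721 and 0.874). PRG3 had 2 rows, of which the one with the higher mean was used. The part of these cells in the CYSLTR2 and LTC4S values was not tested.

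**Figure D2:**
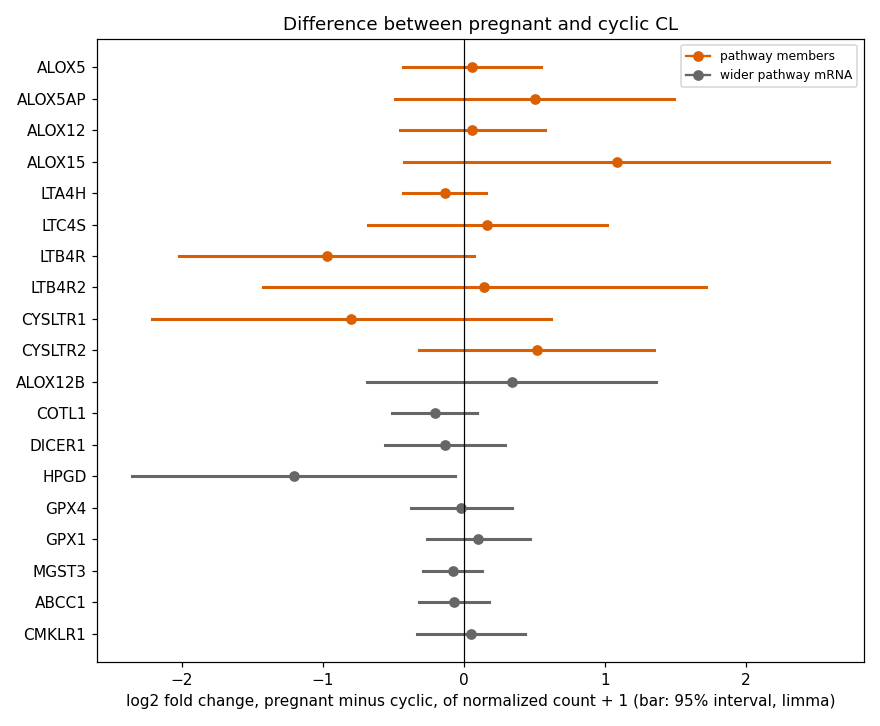
Log2 fold change between CL of pregnancy and of the estrous cycle (horizontal axis, pregnant minus cyclic, of normalized count + 1) with its 95% interval from limma, for the 10 members (orange) and 9 other mRNA of the pathway (grey). The interval of each member includes 0, from LTB4R at -0.97 to ALOX15 at 1.08, and that of HPGD at -1.21 does not, although its adjusted p is 0.639.

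Steps around the 10 mRNA were followed with 29 further genes, of which 19 were in the table. Of these, 0 passed in limma or edgeR, and 0 of the 16 with an adjusted p in DESeq2, with 8 log2 fold changes above 0, 11 below and a median of -0.02. At an unadjusted p under 0.05 limma had 0 higher and 1 lower, where over all genes 3.66% were higher and 3.85% lower. The 1 was HPGD, the dehydrogenase that oxidizes 15-HETE to 15-KETE and also inactivates prostaglandins. It had 87.3, 36.8, 84.6 and 61.3 normalized counts in pregnancy, against 87.0, 416, 81.0 and 167 in the cycle. Cyclic replicates 2 and 4 stood above the other 6 CL, which shared one range. HPGD averaged 67.5 ± 23.6 normalized counts in pregnancy and 188 ± 157 in the cycle (SD, n = 4 each). For HPGD the difference on the log2 scale was -1.21 ± 0.51 (SE), at an adjusted p of 0.639 by limma, and it was -0.71 without cyclic replicate 2. By exact two-sided permutation of the 8 CL its p was 0.143. The paper had already described HPGD as numerically, but not significantly, lower in these CL of pregnancy. Cyclic replicate 2 was highest for HPGD, CYSLTR2 and LTC4S. It was highest for 2 of the 10 members, as were pregnant replicate 5 and cyclic replicate 1 for 2 each.

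Of the release and helper genes, 4 were in the table, with log2 differences between -0.56 (MAPKAPK2, a kinase that phosphorylates ALOX5) and 0.25, and 0 passed in limma. MAPKAPK2 had only 4, 4, 4 and 8 reads in pregnancy and 10, 4, 12 and 6 in the cycle (limma adjusted p = 0.804). PLA2G4A, the phospholipase that frees arachidonic acid, had 69.1, 57.7, 55.2 and 55.9 normalized counts in pregnancy, against 54.4, 48.3, 45.5 and 51.0 in the cycle. It was the 1 mRNA of the 19 whose groups did not overlap, beside 4.3% of all genes, and was singled out after its values were seen, and its log2 difference was 0.25 ± 0.23 (SE), at an adjusted p of 0.819 by limma. COTL1, an actin-binding protein that also binds ALOX5, averaged 7594 ± 1324 normalized counts in pregnancy and 8723 ± 1118 in the cycle (n = 4 each, ± SD), and DICER1, the microRNA-processing enzyme that binds ALOX5 in human cells, 4361 ± 805 normalized counts in pregnancy and 4809 ± 1091 in the cycle (n = 4 each, ± SD). Their log2 fold changes were -0.21 and -0.13 (limma adjusted p = 0.739 and 0.887).

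Of the 13 enzymes and transporters that act after the lipoxygenases, 0 passed in limma, with log2 differences between -1.21 (HPGD) and 0.82 (DPEP1, a dipeptidase that cleaves leukotriene D4). DPEP1 had only 4, 3, 7 and 6 reads in pregnancy and 2, 8, 1 and 1 in the cycle. A recorded 1 may stand for none, and its adjusted p by limma was 0.759. The glutathione peroxidases GPX4 and GPX1, which reduce lipid peroxides, had log2 fold changes of -0.02 and 0.10 (limma adjusted p = 0.988 and 0.894). MGST3, a membrane glutathione transferase that can make leukotriene C4, averaged 2095 ± 128 normalized counts in pregnancy and 2218 ± 199 in the cycle (n = 4 each, ± SD), at an adjusted p of 0.854 by limma. ABCC1, the pump that exports leukotriene C4 from cells, averaged 1844 ± 130 normalized counts in pregnancy and 1945 ± 261 in the cycle (n = 4 each, ± SD), at an adjusted p of 0.893 by limma. CMKLR1, which binds chemerin and has been described as a resolvin receptor, averaged 981 ± 142 normalized counts in pregnancy and 959 ± 209 in the cycle (n = 4 each, ± SD), at an adjusted p of 0.964 by limma. Of the other lipoxygenases listed, ALOX12B, known from skin, averaged 12.9 ± 4.27 normalized counts in pregnancy and 10.4 ± 4.92 in the cycle (n = 4 each, ± SD), at an adjusted p of 0.876 by limma.

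**Figure D3:**
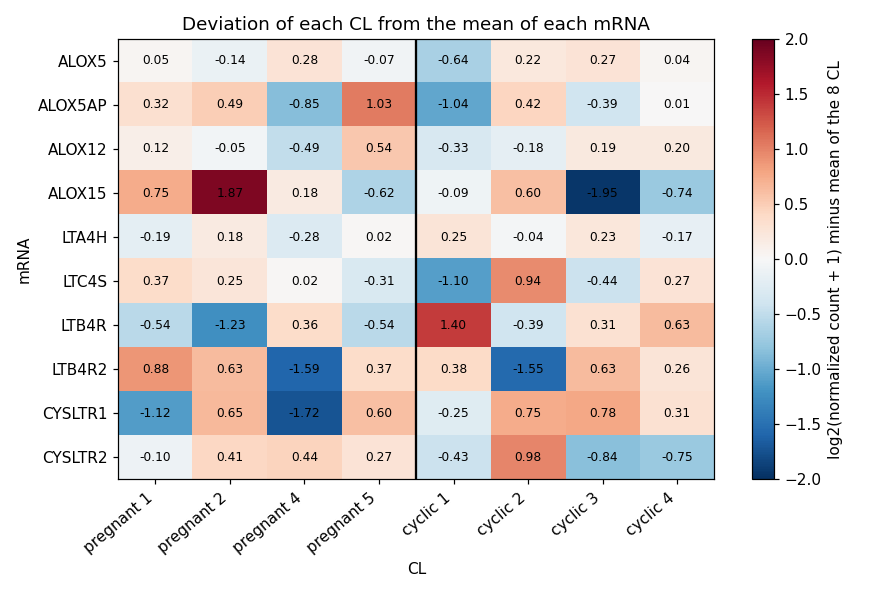
Log2(normalized count + 1) of each member (rows) in each CL (columns, pregnancy left of the vertical line) minus the mean of that mRNA over the 8 CL, in red where above and blue where below it. No column is of one color, and cyclic replicate 1 combines low ALOX5 (-0.64), ALOX5AP (-1.04) and LTC4S (-1.10) with high LTB4R (1.40).

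The members did not rise and fall together from CL to CL. Pregnant replicate 4 had the lowest value for ALOX12, LTA4H and CYSLTR1, and shared the lowest read number for LTB4R2 with cyclic replicate 2, but the highest ALOX5, and cyclic replicate 1 had the lowest for 3 (ALOX5, ALOX5AP and LTC4S) but the highest LTA4H and LTB4R. Among the 7 mRNA with a mean of at least 20 normalized counts, 21 pairs were compared over the 8 CL, of which 11 had a positive and 10 a negative Pearson r, with a median of 0.0080. ALOX5 and ALOX5AP, whose proteins act together, had an r of 0.20 and a Spearman rho of -0.21 (exact permutation p = 0.660 and 0.619, adjusted over the 21 pairs 0.867 and 0.923), and r was -0.67 without pregnant replicate 4 and cyclic replicate 1. The strongest relation was between ALOX5AP and LTB4R, with an r of -0.82 and a rho of -0.81 (exact permutation p = 0.0131 and 0.0218, adjusted 0.276 and 0.457). Without the same 2 CL its r was -0.67. ALOX5AP and ALOX12 had an r of 0.72 and a rho of 0.55 (exact permutation p = 0.0468 and 0.171, adjusted 0.414 and 0.687), and r was 0.32 without pregnant replicates 4 and 5. None of the pairs passed after adjustment.

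Relations to leukocyte markers were computed for the same 7 mRNA and lists of macrophage, neutrophil and T cell markers, 21 relations in all. After adjustment 0 passed, with 2 under 0.05 before it by Pearson's r and 1 by Spearman's rho. Both concerned ALOX5. With the mean of 10 macrophage markers its r was 0.77 and its rho 0.81 (exact permutation p = 0.0199 and 0.0218, adjusted 0.209 and 0.457), 0.78 for deviations from the group means and 0.56 without pregnant replicate 2 and cyclic replicate 1. With the mean of the 6 neutrophil markers its r was -0.82 and its rho -0.60 (exact permutation p = 0.0182 and 0.132, adjusted 0.209 and 0.926), -0.86 for deviations from the group means and -0.69 without cyclic replicates 1 and 4. The macrophage markers themselves summed to 22212 to 41091 normalized counts in pregnancy and 21605 to 34631 in the cycle. The T cell markers summed to 2217 to 2825 normalized counts in pregnancy and 1197 to 2237 in the cycle. Of these, 7 of 7 had log2 fold changes above 0, beside 6945 of 13861 genes, and 0 passed in limma. For the mean of the T cell markers the p by exact two-sided permutation of the 8 CL was 0.0857. With their mean ALOX5 had an r of 0.54 and a rho of 0.26 (exact permutation p = 0.165 and 0.536, adjusted 0.655 and 0.929), and r was 0.09 without cyclic replicates 1 and 2.

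**Figure D4:**
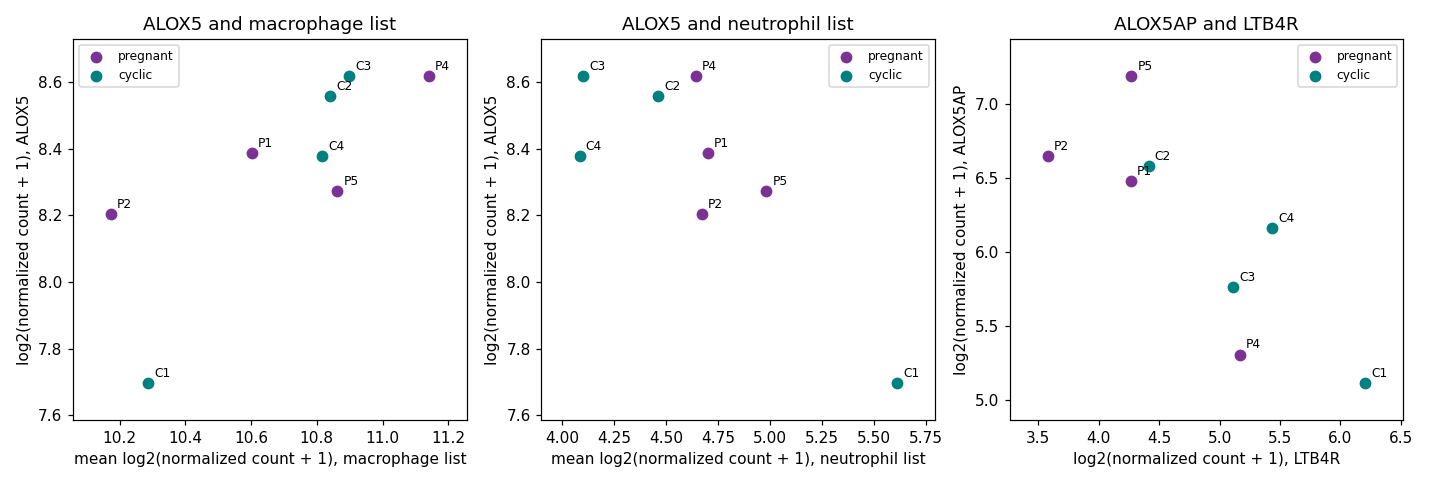
Log2(normalized count + 1) of ALOX5 against the mean of the macrophage list (left) and of the neutrophil list (middle), and of ALOX5AP against LTB4R (right), with 1 point per CL in purple (pregnant, P) and teal (cyclic, C). The Pearson r values are 0.77, -0.82 and -0.82 over 8 CL, and cyclic replicate 1 lies at an end of the ALOX5 or ALOX5AP axis in all 3 panels.

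The mRNA whose pattern over the 8 CL was most like that of a member were taken from the 12073 other genes with a mean of at least 20 normalized counts, as a description with no test. For ALOX5 they were CX3CR1, the fractalkine receptor of monocytes and macrophages (r = 0.98), and the collagen gene COL24A1 (0.97). CX3CR1 had 676, 580, 862 and 686 normalized counts in pregnancy, against 285, 846, 929 and 814 in the cycle, so it shared the low value of cyclic replicate 1, and its r stayed at 0.91 or above when 1 CL was left out. All genes named here were picked for a high r over the same 8 CL. Neither the height of r nor the omission of 1 CL therefore tests the likeness. For ALOX5AP they were SAT2 (0.98) and DDO, D-aspartate oxidase (0.97), for ALOX12 FPGT (0.99) and FBXO2 (0.95), and for LTA4H the interleukin 4 receptor chain IL4R (0.98) and the sialyltransferase ST6GALNAC4 (0.96). LTC4S was nearest to HGFAC (0.98) and ZNF605 (0.95), LTB4R to LPPR2 (0.97) and the urokinase receptor PLAUR (0.96), and CYSLTR2 to TONSL (0.95). No member was among the nearest mRNA of another.

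**Figure D5:**
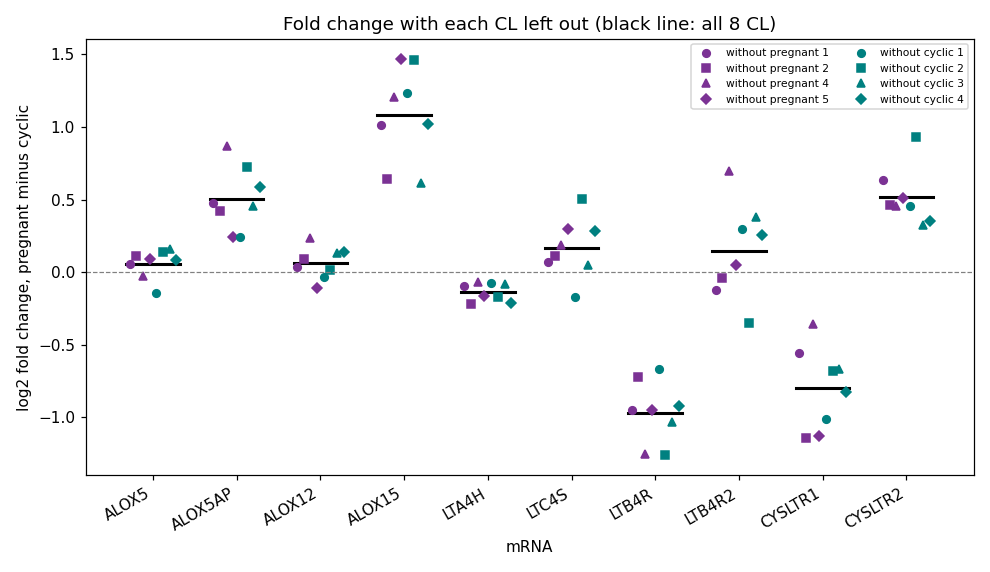
Log2 fold change of each member (vertical axis, pregnant minus cyclic) with each of the 8 CL left out, in purple where the CL is of pregnancy and teal where it is of the cycle, beside the value from all 8 CL (black line). LTB4R runs from -1.26 to -0.67 and CYSLTR2 from 0.32 to 0.93 without crossing 0, while ALOX5, ALOX12, LTC4S and LTB4R2 cross it.

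The labelled tissue was checked against its markers. The luteal genes STAR, CYP11A1, HSD3B1, LHCGR, PTGFR and OXT, of steroid synthesis, gonadotropin and prostaglandin reception and oxytocin, were abundant in each CL, with a sum of 1194912 to 1958046 normalized counts in pregnancy and 1128915 to 1437501 in the cycle. B cell markers, 3 of 4 in the table, summed to 134 to 174 normalized counts in pregnancy and 89.0 to 210 in the cycle.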

How the data were processed

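The authors deposited 1 table of normalized counts, a signal never below 0, in which the reads of each gene were divided by 1 factor per CL. Which aligner, counter, build and annotation they used was not given in the sources used here. Columns of group means in the table equal the means of the CL and were not otherwise used.

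From the deposited values, log2(normalized count + 1) was fitted by limma-trend (limma 3.58.1 in R 4.3.3) over all 8 CL with no covariate, on all 13861 genes, each of which passed a filter of a mean of at least 1, adjusted by Benjamini-Hochberg and called under 0.05. Dividing by the smallest value of a CL gave whole reads (within 0.01) for 99.9 to 100.0% of values, which were tested with edgeR 4.0.16 (quasi-likelihood) and DESeq2 1.42.0. Of read numbers from 2 to 9, 71.4 to 77.2% were even, so Poisson intervals may be too narrow. Correlations were tested by exact permutation of pairings. Scripts were tested on simulated counts. Tables and figures were made in Python 3.11.15 (pandas 2.3.3, numpy 2.4.6, matplotlib 3.10.9, scipy 1.17.1).

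The members and lists were chosen with earlier results of these data known. Named were the 10 members, in each wider list any mRNA with an unadjusted p under 0.05 and the 2 with the highest mean, HPGD, and the 2 nearest genes of each member with a mean of at least 20. Other genes with printed values are markers, are said to be chosen otherwise, or, as MAPKAPK2 and DPEP1, are an end of a range. A gene named by this rule is not reported here. Alternatives were pseudocounts of 0.5 and 0.1, no filter or a mean of at least 5, quantile scaling, a replicate block, omission of each CL, edgeR, DESeq2, and other p thresholds.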

Additional observations from a re-analysis of the deposited data

Results flagged for a closer look

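CYSLTR2 in cyclic replicate 2 stood far from its group, at 429 normalized counts where the other CL of the cycle had 121 to 160. The gap was 0.873 of the range of the group, above the critical value of 0.829 for 4 samples. It was the 1 such value among 20 groups of 4 CL examined (10 mRNA, pregnant and cyclic), where chance gives about 1 in 20. In pregnancy CYSLTR2 had 202 to 294 normalized counts.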

How the results depend on the processing

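The count of members that passed was 0 under each alternative: no filter, a mean of at least 5, both pseudocounts, quantile normalization, each CL left out, a replicate block, edgeR, DESeq2 (8 of the 10 members, as LTB4R2 and CYSLTR1 had no adjusted p), an adjusted p under 0.10 and an unadjusted p under 0.05. For the 19 wider pathway mRNA it was 0 as well (18 tested with a mean of at least 5, 16 in DESeq2), except 1 (HPGD) at an unadjusted p under 0.05. Of 160 alternative log2 fold changes of single members, 149 kept their direction and 11 turned it, none of them called; 6 members never turned. ALOX12 was -0.037 with the replicate block, and LTC4S was -0.011 in edgeR and -0.0091 in DESeq2. With 1 CL left out, ALOX5 ran from -0.15 to 0.16, ALOX12 from -0.11 to 0.23, LTC4S from -0.17 to 0.51 and LTB4R2 from -0.35 to 0.70; the cause was not tested. The smallest adjusted p of any member was 0.404, for CYSLTR2 without cyclic replicate 2. Same-numbered CL did not deviate together over 13861 genes. The r of deviations from the group means was 0.02, -0.05 and 0.01 for numbers 1, 2 and 4. These r do not show whether such CL share more than a number. The block left the counts of passing mRNA at 0. CL whose number occurs in only 1 group do not inform its contrast, which rests on numbers 1, 2 and 4. With so few pairs it had little power to call any mRNA. The 0 relations to leukocyte markers stayed 0 under alternatives chosen after seeing the data (both pseudocounts, quantile normalization, each CL left out). LTB4R2 and CYSLTR1 had 1 to 10 reads per CL and ALOX15 2 to 41; the shares of counting error and spread between animals in their intervals were not tested. CYSLTR1 was -1.05 and LTB4R -1.01 with a pseudocount of 0.1, so their order depends on it.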

Other observations

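ALOX12E (ENSBTAG00000031933), an epidermal lipoxygenase that was in no list and was chosen after its values were seen, had 2, 4, 9 and 2 reads in pregnancy and 4, 28, 4 and 4 in the cycle (limma adjusted p = 0.805). Its highest value was in cyclic replicate 2. CYP4F3, which in human neutrophils starts the breakdown of leukotriene B4 and is also outside the naming rule, had 1.92, 15.9, 3.68 and 8.60 normalized counts in pregnancy and 2.17, 59.9, 9.88 and 11.8 in the cycle (limma adjusted p = 0.826). Its highest value was in cyclic replicate 2. The share of all genes that were highest in that CL was not counted.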
